A study of Mus musculus with 14 samples.

Results

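In heart tissue of 12-week-old mice, 303 regions of the histone mark H3K27me3 were linked to at least 1 gene whose RNA was detected in the same study. They were taken from the deposited list of 12-week regions, which holds 1164 of the 4597 regions in the lists of both ages. The authors named the genes of each region, and a region was kept where a named gene had a mean of 0.5 or more CPM (counts of the gene per 1e+06 counts of the library) over 8 RNA-seq libraries. The members were thus chosen by the mean RNA level over both ages, and levels are given as a description, while the RNA difference between the ages was not used. Of the other 12-week regions, 366 were linked only to genes under that level, called silent here, and 495 had no linked gene.

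All animals were male wild-type C57BL/6 mice on standard chow, sampled at 12 or 68 weeks of age, and no treatment is named. Heart tissue was powdered, so all cell types of the sampled tissue contribute. RNA was sequenced in 4 libraries at each age. H3K27me3 was profiled by CUT&RUN, in which a nuclease guided by an antibody releases the DNA at marked sites, in 2 libraries and 1 input library at each age. The region names call every region of a list unique to its age, so regions that the authors found at both ages are not expected in these lists. The lists give 1 score per region and no value per library, and no replicate error can be given for a region. The series title concerns glutamine in the diet, cardiac ageing and H3K27me3, and no diet group was analysed here.

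H3K27me3 is a trimethyl mark on histone H3 that Polycomb repressive complex 2 (PRC2) deposits through its catalytic subunit EZH1 or EZH2. The complex PRC1 binds the mark through its CBX proteins, and KDM6 demethylases remove it. In adult tissues the mark typically covers CpG-rich promoters of developmental regulators that the tissue does not use, and it is associated with low transcription. In a tissue of many cell types a gene can carry the mark in some cells and be transcribed in others.

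Promoters of 6 linked genes are shown because their RNA differed between the ages and because CpG-rich promoters are where this mark is usually found. They are the 5 genes with the smallest adjusted p-values among those whose reference promoter lay within 1000 bases of the gene start in the count table (Bnc2 did not), and Pax5, which was lower at 68 weeks. Each runs from 250 bases before to 50 bases after the gene start, 5′ to 3′ on the gene's strand, from RefSeq on GRCm38.p6, with every CG dinucleotide in capitals. They are sequences of the linked genes and not of the regions. The genome build of the regions was not established, so whether a region lies at any of these promoters is not known.
Cds1: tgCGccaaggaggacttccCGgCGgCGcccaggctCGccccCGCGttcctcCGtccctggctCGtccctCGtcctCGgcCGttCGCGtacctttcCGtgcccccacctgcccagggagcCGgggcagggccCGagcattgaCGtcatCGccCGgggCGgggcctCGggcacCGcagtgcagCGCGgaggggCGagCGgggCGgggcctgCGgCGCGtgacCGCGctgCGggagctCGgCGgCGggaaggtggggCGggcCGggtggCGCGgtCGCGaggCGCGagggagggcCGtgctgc
Scn4b: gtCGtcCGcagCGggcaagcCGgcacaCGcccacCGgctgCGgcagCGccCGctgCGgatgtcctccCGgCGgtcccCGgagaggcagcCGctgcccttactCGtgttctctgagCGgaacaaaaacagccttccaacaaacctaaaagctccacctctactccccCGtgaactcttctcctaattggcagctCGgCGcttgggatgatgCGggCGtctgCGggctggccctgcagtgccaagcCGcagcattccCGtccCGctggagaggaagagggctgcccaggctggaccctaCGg
Cdh22: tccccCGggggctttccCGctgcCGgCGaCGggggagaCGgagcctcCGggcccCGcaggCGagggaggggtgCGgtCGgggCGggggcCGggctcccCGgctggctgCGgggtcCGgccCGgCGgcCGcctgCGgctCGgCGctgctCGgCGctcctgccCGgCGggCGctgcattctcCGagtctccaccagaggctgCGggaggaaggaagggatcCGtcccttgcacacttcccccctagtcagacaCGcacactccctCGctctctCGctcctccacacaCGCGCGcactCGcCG
Rab6b: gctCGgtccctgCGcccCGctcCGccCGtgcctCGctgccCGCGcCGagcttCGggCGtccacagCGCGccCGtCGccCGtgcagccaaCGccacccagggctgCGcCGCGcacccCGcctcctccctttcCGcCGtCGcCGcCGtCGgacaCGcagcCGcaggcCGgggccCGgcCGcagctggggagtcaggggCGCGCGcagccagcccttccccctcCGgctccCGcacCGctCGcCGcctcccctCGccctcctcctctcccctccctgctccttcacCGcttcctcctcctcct
Cxcl14: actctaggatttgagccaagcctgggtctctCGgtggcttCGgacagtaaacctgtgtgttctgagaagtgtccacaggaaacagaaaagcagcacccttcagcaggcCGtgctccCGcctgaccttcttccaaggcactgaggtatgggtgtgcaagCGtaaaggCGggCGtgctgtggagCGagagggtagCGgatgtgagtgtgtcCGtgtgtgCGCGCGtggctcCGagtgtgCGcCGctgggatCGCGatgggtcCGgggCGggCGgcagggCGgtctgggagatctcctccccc
Pax5: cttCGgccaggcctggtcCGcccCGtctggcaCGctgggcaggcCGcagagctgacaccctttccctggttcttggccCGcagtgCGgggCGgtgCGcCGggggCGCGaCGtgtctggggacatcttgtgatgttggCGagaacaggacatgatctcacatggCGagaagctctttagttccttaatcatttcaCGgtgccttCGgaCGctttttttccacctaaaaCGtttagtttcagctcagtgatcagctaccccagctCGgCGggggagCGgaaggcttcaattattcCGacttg

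These promoters lie at chr5:101764880-101765179 for Cds1, chr9:45138374-45138673 for Scn4b, chr2:165234688-165234987 for Cdh22, chr9:103111824-103112123 for Rab6b, chr13:56296502-56296801 for Cxcl14 and chr4:44710645-44710944 for Pax5. Cds1, Scn4b and Rab6b are on the plus strand, and Cdh22, Cxcl14 and Pax5 are on the minus strand. Cds1 held 46 CG dinucleotides, Rab6b 42, Cdh22 38, Scn4b 26, Pax5 23 and Cxcl14 22. The median over 27025 RefSeq mouse promoters of the same length, of genes at any RNA level, was 7. No median was taken over the promoters of expressed genes alone. The ratio of observed to expected CG lay between 0.772 in Cxcl14 and 1.02 in Rab6b, against a median of 0.389 over all promoters. GC content ran from 59.0% in Pax5 to 79.0% in Cds1, against a median of 52.7%. The letters GGGCGG, searched on both strands, were in all of the 6 but Scn4b, and in 36.0% of all promoters. Neither CACGTG nor TATAAA, searched on both strands, was in any of the 6, against 7.19% and 14.2% of all promoters. A promoter was matched for 162 of the 209 linked genes, or 77.5%, which is too few for a check of sequence content over the whole set.

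The RNA libraries held 23599296 to 31662601 counts at 12 weeks and 28842059 to 34599121 at 68 weeks. In all, 4 libraries stood apart by transcripts of airway epithelium. Summed CPM of 20 marker genes reached 2131, 1142 and 669 in replicates 1, 2 and 3 of the 12-week group, and 1368 in replicate 3 of the 68-week group. The same sum was 79.1 CPM in 12-week replicate 4 and 31.4 to 45.8 CPM in the other 3 libraries of 68 weeks. Some single markers differed more: Bpifa1 was at 11.7 CPM in 12-week replicate 4 and at 0.229, 0.243 and 0.173 CPM in those 3 libraries. Scgb1a1 was at 6.02 against 0.196, 0 and 0.0578 CPM, and Cbr2 at 15.0 against 16.5, 13.8 and 17.5 CPM. So 12-week replicate 4 was low in airway transcripts but not free of them. Cardiomyocyte markers summed to 46086 to 51675 CPM at 12 weeks and to 52027 to 55390 CPM at 68 weeks, and 0 of the 8 markers passed the age test in edgeR, 1 passed in DESeq2 and 3 had an unadjusted p under 0.05. In such bulk tissue, fewer cells of a type and less RNA per cell cannot be told apart.

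The 303 regions carried 349 links, of which 308 led to 209 distinct expressed genes. Of these genes 194 were protein coding. A single expressed gene was linked to 298 regions, and 5 regions had a pair. The pairs were Pth1r with Myl3 at both of their shared regions, Syn2 with Timp4, R3hdm4 with Kiss1r, and Islr with Islr2, named here because they are so few. Another 30 genes that were silent, or that had no row in the count table (4 of them), shared 35 of these regions. Among the 12-week regions that had any linked gene, 45.3% had an expressed one, and 43.9% of the 68-week regions did. Of all 49315 genes counted, 30.3% reached the same level. That is a share of genes and not of regions, and a region counts with any of its genes, so these shares are not alike.

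Regions were short and of similar score. Their median width was 274 bases, from 201 to 1036, against 270.5 bases for regions of silent genes and 265 bases for regions without a gene. The authors' score, which their list calls enrichment without stating its scale, had a median of 4.55, with quartiles of 4.00 and 5.41. Silent-gene regions had a median of 4.47, and regions without a gene 4.49. Scores of 10 or more were found in 3 of the 303 regions (0.990%), in 14 of the 366 silent-gene regions (3.83%) and in 10 of the 495 regions without a gene (2.02%). The lists give no replicates, so these differences were not tested.

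**Figure D1:**
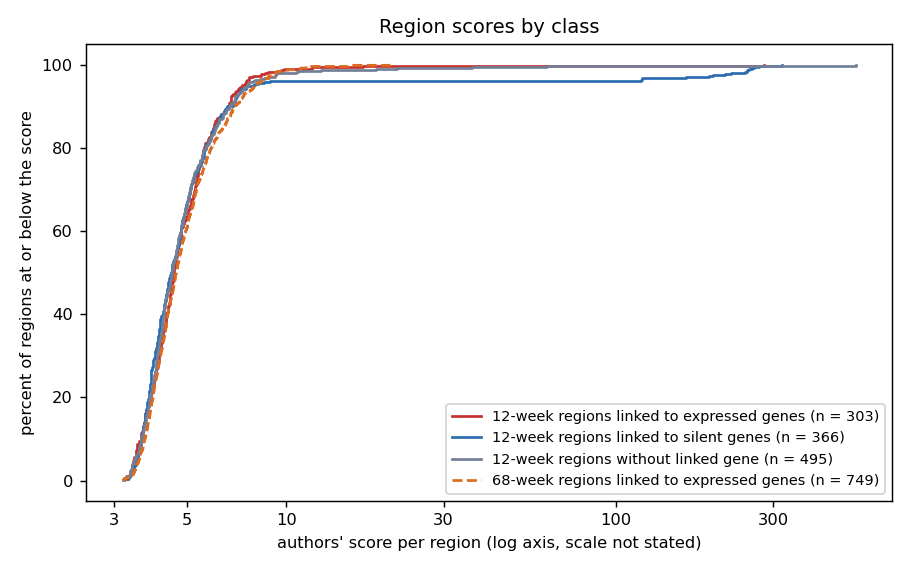
Percent of regions (y axis) at or below a given score (x axis, log scale, the authors' value per region, scale not stated), one line per class of region. The 4 lines run close together up to a score of 10, and regions linked to silent genes (blue) have the largest share beyond it.

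The highest score among the members, 281, belonged to chr2:98497010-98497553, linked to the predicted gene Gm10800. Scores of other 12-week regions reached 319 with silent genes and 535 without a gene, while 68-week scores reached 26.7 at most. Whether scores this high reflect the mark was not tested. Region positions are those of the deposited list, whose genome build could not be established, and gene positions are those of the count tables, mm10 by label. Next among the members came chr8:107330181-107330411 with a score of 17.1, linked to Cdh1, which encodes E-cadherin of epithelial cells. A score of 11.9 was given to chr7:139201755-139202028, linked to the ciliary gene Cfap46. The remaining regions of the top 10 had scores from 7.71 to 9.81. They were linked to Lrba, Rab6b, Tc2n, Edil3, Tbx3os1, a predicted gene and Foxo6, a forkhead transcription factor. Of these genes Rab6b alone, besides Gm10800, passed the age test in edgeR described below. Foxo6 did not pass in edgeR (log2 fold change -0.54 ± 0.14, adjusted p = 0.0691) and passed in DESeq2 (adjusted p = 0.0159). The 5 widest regions were linked to Cadm1 (1036 bases), Lrba (930), Kbtbd12 (901), Nfic (856) and Prdm1 (792).

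Many regions lay in groups. Another 12-week region was within 10 kb of 143 members (47.2%), as it was for 48.1% of silent-gene regions and 40% of regions without a gene. Of the 209 genes, 152 had 1 region, 57 had 2 or more, and the 23 genes with 3 or more held 88 regions. Several of the genes with the most regions encode regulators of development. Cyp26b1, an enzyme that degrades retinoic acid, had 7 regions over 18.7 kb of chromosome 6, with scores from 3.40 to 5.90. The transcription factor gene Gata3 had 6 regions over 12.3 kb, and the LIM homeobox gene Lhx6 had 6 over 13.1 kb. Cadm1, which encodes a cell adhesion molecule, had 5 regions over 12.8 kb. Runx1, a transcription factor of blood formation, had 5 regions spread over 86.0 kb.

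Lrba, which encodes a protein of vesicle traffic, had 5 regions packed into 4.34 kb, with scores from 4.72 to 9.81. In the list, 2 of these 5 regions were also linked to Mab21l2, a silent gene named here after its link was seen. Casz1, a zinc finger transcription factor of heart development, had 4 regions over 82.7 kb. Plag1 had 4 regions over 4.17 kb and the antisense gene Tbx3os1 had 4 over 9.98 kb. None of these 9 genes had a region in the 68-week list.

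**Figure D2:**
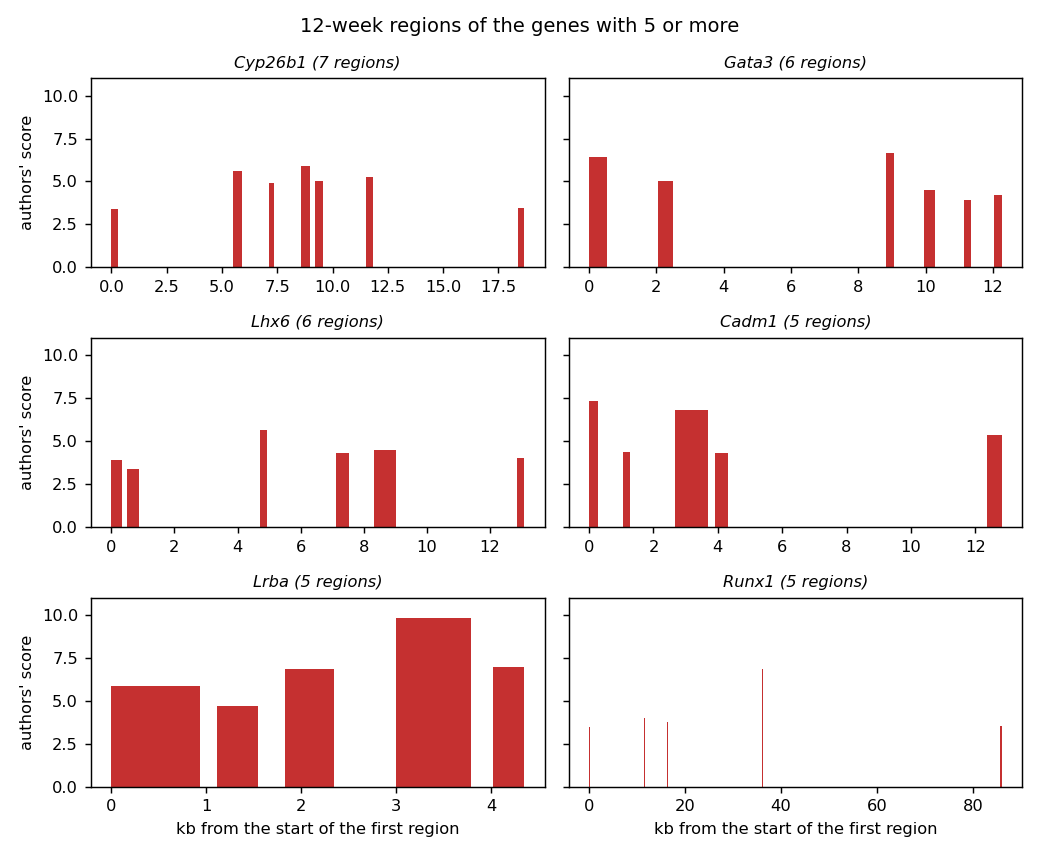
The 12-week regions of the 6 genes with 5 or more of them, drawn to scale by distance in kb from the start of the first region (x axis) with the authors' score as bar height (y axis). The 5 regions of Lrba lie within 4.34 kb, whereas those of Runx1 spread over 86.0 kb.

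Chromosomes 4 and 6 held 32 regions each, chromosome 2 held 28, chromosome 9 held 27 and chromosome 11 held 24. The X chromosome held 1.

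The linked genes were at moderate RNA levels. Their median was 5.48 CPM, against 14.8 CPM over the 14958 genes that reached the threshold. Per kilobase of gene length the median was 1.01 CPM, against 3.65 CPM for the tested genes at that level. Of the 209 genes, 38 were under 1 CPM, 102 under 5 CPM and 13 at 100 CPM or more. Genes just above the threshold included Irx3os at 0.518 CPM and Odf3b at 0.549. Just below it were Prr36 at 0.498, Kcnip1 at 0.471 and Cdca2 at 0.471.

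A few linked genes are among the abundant transcripts of heart muscle. Myl3, the ventricular essential myosin light chain, was at 4193, 4764, 4078 and 3865 CPM at 12 weeks and at 3875, 4523, 3949 and 4544 CPM at 68 weeks, where CPM is scaled to the normalized library size from here on. The 8 libraries overlapped between the ages, with a log2 fold change of -0.00 ± 0.082 (SE). Its mean per kilobase of gene was 2065 CPM, the highest of those named here. Acta1, skeletal muscle actin, was at 354 to 472 CPM at 12 weeks and at 250.4, 367, 599.7 and 1285 CPM at 68 weeks. Replicate 4 of the 68-week group was the highest of the 8 libraries, and the age difference did not pass the test (log2 fold change 0.68 ± 0.42, adjusted p = 0.418, edgeR).

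Fhod3, a formin that organizes sarcomeric actin, lay at 414 to 469 CPM at 12 weeks and at 484 to 503 CPM at 68 weeks. Its ages did not overlap, but the log2 fold change of 0.13 ± 0.052 did not pass the test (adjusted p = 0.226, edgeR). Per kilobase the means were 328 CPM for Acta1, 137 for Hfe2 (Hjv in the region list), 87.1 for Fhod3, 50.2 for Kcnj11, 47.9 for Scd1, 45.5 for Ndrg4, 36.4 for Slc4a3, 35.5 for Nfic and 31.5 for Ntn1. Of these 10 most abundant linked genes, Myl3 included, Scd1 alone passed the age test. Kcnj11 encodes the pore of the ATP-sensitive potassium channel, Slc4a3 an anion exchanger, and Ntn1 the guidance cue netrin.

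The question of the age comparison was whether genes linked to a region found at 12 weeks differed in RNA between 12 and 68 weeks. All 209 genes were tested within a fit over 15947 genes. At an adjusted p under 0.05 (edgeR quasi-likelihood test, Benjamini-Hochberg over all genes), 17 linked genes rose and 2 fell at 68 weeks. That is 8.13% higher and 0.957% lower, where 1.61% of all genes tested were higher and 1.22% were lower, or 2.83% in either direction. Of all tested genes at a mean of 0.5 CPM or more, 1.67% were higher and 1.28% lower. Those genes share the threshold but are not matched on level: their median was 14.8 CPM, against 5.48 CPM for the linked genes. Of the 209 genes, 10 averaged under 0.5 CPM at one age and so passed the filter through the other, among them the called genes Vgll2 and Pax5. The 199 genes at or above that level at both ages held 16 of the increases and 1 of the decreases. The set was not tested as a set, and linked genes are not independent of each other. The median log2 fold change of the 209 genes was 0.03, against -0.01 over all genes tested, and 116 of the 209 (55.5%) were above 0, against 47.9% of all.

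In 45 of the 209 genes (21.5%) the libraries of the ages did not overlap, where this held for 12.1% of all genes tested. Of the 45, 34 were higher and 11 lower at 68 weeks, and all 19 called genes were among them. When the airway transcripts entered the model as a covariate, 10 linked genes were higher and 0 lower (41 and 14 at an unadjusted p under 0.05), where 0.508% of all genes were higher and 0.176% lower. With counts scaled to library size alone the linked calls were 15 higher and 5 lower, and those over all genes turned from 256 higher and 195 lower to 176 higher and 248 lower. DESeq2 called 26 linked genes higher and 12 lower, and over all genes 555 higher and 446 lower.

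**Figure D3:**
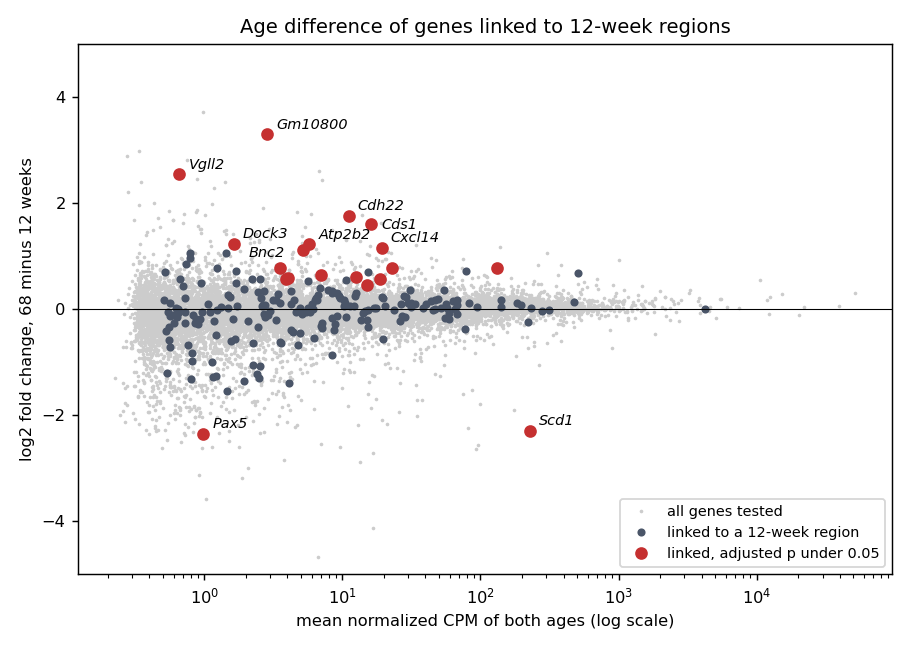
Log2 fold change of 68 against 12 weeks (y axis) by mean normalized CPM over both ages (x axis, log scale) for all 15947 genes tested (light grey), the 190 linked genes that did not pass (dark) and the 19 that did (red). Called genes with a change above 1 in size are named: 8 lie above 0, and Pax5 and Scd1 lie below it.

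Cds1 had the smallest adjusted p of the linked genes. It encodes a CDP-diacylglycerol synthase of phospholipid synthesis and was linked to chr5:101967154-101967373, with a score of 3.94. Its level was 8.57, 8.87, 7.53 and 6.75 CPM at 12 weeks and 22.0, 28.2, 23.5 and 22.9 CPM at 68 weeks. Every 68-week library was above every 12-week library (log2 fold change 1.60 ± 0.11, adjusted p = 0.00015, edgeR). Rab6b, a small GTPase of Golgi transport, was linked to chr9:102991581-102991944, one of the highest scores at 9.59. It was at 14.9 to 18.6 CPM at 12 weeks and at 25.8 to 31.7 CPM at 68 weeks, without overlap (log2 fold change 0.78 ± 0.083, adjusted p = 0.0030, edgeR).

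Ion channel and calcium genes supplied 3 of the 17 genes that rose. The ion channel and calcium list had 6 linked expressed members, and 3 rose, none fell and 3 did not pass. Over the whole list 10 of 112 tested genes rose and 1 fell. Scn4b encodes a beta subunit of voltage-gated sodium channels and was linked to chr9:45055805-45056052, with a score of 4.37. It was at 95, 102, 93.4 and 99.4 CPM at 12 weeks and at 185, 173, 154 and 154 CPM at 68 weeks. The ages did not overlap (log2 fold change 0.77 ± 0.068, adjusted p = 0.00111, edgeR).

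Cacna1s, the pore subunit of the skeletal muscle calcium channel, was linked to chr1:136031747-136031990, with a score of 6.73. It was at 9.46, 9.23, 11.5 and 10.1 CPM at 12 weeks and at 14.9, 16.5, 14.9 and 14.6 CPM at 68 weeks (log2 fold change 0.60 ± 0.083, adjusted p = 0.0084, edgeR). With airway transcripts in the model its adjusted p was 0.0501, just past the threshold. Atp2b2, a calcium pump of the plasma membrane, had 2 regions within 31.6 kb of chromosome 6. It was at 2.65, 2.94, 3.79 and 4.51 CPM at 12 weeks and at 7.35, 5.95, 9.99 and 8.95 CPM at 68 weeks (log2 fold change 1.22 ± 0.20, adjusted p = 0.0174, edgeR). With airway transcripts in the model its adjusted p was 0.0515. Among those that did not pass, Kcnj11 and Kcnma1 encode potassium channels. Their log2 fold changes were 0.11 ± 0.051 and -0.09 ± 0.36.

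**Figure D4:**
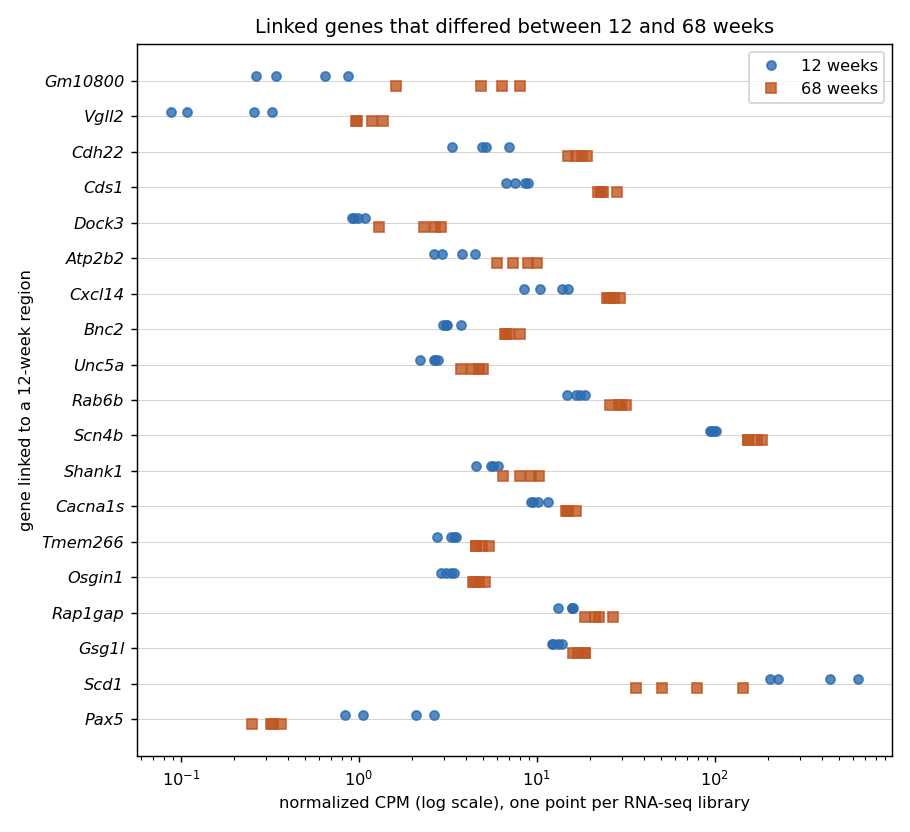
Normalized CPM (x axis, log scale) of the 19 linked genes that passed the age test (y axis), one point per library, 4 at 12 weeks (blue circles) and 4 at 68 weeks (orange squares). In each gene the 2 groups of points do not overlap, and in Scd1 and Pax5, at the bottom, the 12-week points are the higher ones.

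Among 5 linked cadherin and protocadherin genes, which encode calcium-dependent adhesion proteins, 1 rose in edgeR. Cdh22 was linked to chr2:165019715-165019932, with a score of 3.77. It was at 3.33, 4.92, 6.97 and 5.20 CPM at 12 weeks and at 19.2, 16.7, 17.9 and 14.9 CPM at 68 weeks. The lowest 68-week library was above the highest 12-week library (log2 fold change 1.76 ± 0.18, adjusted p = 0.00285, edgeR). Pcdh17, at 7.33 to 14.2 CPM at 12 weeks and 4.67 to 8.0 CPM at 68 weeks, overlapped between the ages and did not pass in edgeR (log2 fold change -0.87 ± 0.22, adjusted p = 0.0678). It passed in DESeq2 (adjusted p = 0.00332), with no filter on low counts (0.0235) and without 12-week replicate 2 (0.0431), so that DESeq2 called 2 of the 5 genes. Cdh23 and Pcdh1 had log2 fold changes of 0.09 ± 0.18 and 0.09 ± 0.14, and Cdh1 is described with the airway transcripts.

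Developmental transcription factors gave 1 call in each direction. Of 165 such genes in the list, 37 were linked to a 12-week region at any RNA level, and 13 of these were expressed. Bnc2 rose, Pax5 fell and 11 did not pass. Bnc2, a zinc finger factor found in fibroblasts, was linked to chr4:84589238-84589538, with a score of 5.58. It was at 3.77, 3.12, 3.10 and 2.96 CPM at 12 weeks and at 6.62, 6.96, 6.67 and 8.0 CPM at 68 weeks. The ages did not overlap (log2 fold change 1.12 ± 0.11, adjusted p = 0.00199, edgeR). Fibroblast markers summed to 1349 to 1750 CPM at 12 weeks and 944 to 1253 CPM at 68 weeks, and 1 of the 8 was called, in the lower direction. The part of fibroblasts in the Bnc2 result was not tested.

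Pax5, the transcription factor that sets B cell identity, was linked to chr4:44707229-44707533, with a score of 4.10. It was at 1.06, 2.08, 2.63 and 0.83 CPM at 12 weeks and at 0.36, 0.25, 0.32 and 0.33 CPM at 68 weeks. All 12-week libraries were above the 68-week ones (log2 fold change -2.35 ± 0.39, adjusted p = 0.0181, edgeR). Its 68-week mean was under 0.5 CPM, so it is a member only through the 12-week libraries. The 8 markers of B and T cells summed to 3.95 to 10.3 CPM at 12 weeks and 2.14 to 3.60 CPM at 68 weeks, and 3 of the 6 tested were lower. The sum was at 0 in no library. The part of B and T cells in the Pax5 result was not tested.

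The 11 remaining expressed developmental factors did not pass. The most abundant were Zfhx3 with a log2 fold change of 0.02 ± 0.061, Satb1 with 0.17 ± 0.052, Prdm16 with 0.11 ± 0.074, Ebf1 with -0.14 ± 0.074 and Gata2 with 0.23 ± 0.08. Sox17, an endothelial factor, was at 6.68 to 9.64 CPM at 12 weeks and 11.1 to 15.3 CPM at 68 weeks. Its ages did not overlap, and its adjusted p was 0.066 in edgeR and 0.00618 in DESeq2 (log2 fold change 0.55 ± 0.13). Gata3, with 6 regions, was at 0.854 to 1.72 CPM at 12 weeks and 0.952 to 2.02 CPM at 68 weeks (log2 fold change 0.27 ± 0.29). Lhx6, also with 6 regions, was at 3.38 to 5.68 CPM at 12 weeks and 2.38 to 3.27 CPM at 68 weeks, with an adjusted p of 0.0973 in edgeR and 0.0423 in DESeq2.

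The 2 linked genes of the cardiac transcription factor list, Tbx3 and Irx5, help pattern the conduction system and the ventricular wall. Tbx3 was at 23.2 to 32.1 CPM at 12 weeks and 28.5 to 41.3 CPM at 68 weeks (log2 fold change 0.36 ± 0.12, adjusted p = 0.149, edgeR). Irx5 was at 8.99 to 13.2 CPM at 12 weeks and 7.26 to 13 CPM at 68 weeks (log2 fold change -0.15 ± 0.18). Neither passed in edgeR or DESeq2, 1 of the 2 had an unadjusted p under 0.05, and over the list 1 of 25 tested genes rose. Casz1, with 4 regions, was at 83.4 to 104 CPM at 12 weeks and 89.4 to 100 CPM at 68 weeks, a difference within the spread of the libraries. Cyp26b1, with 7 regions, had a log2 fold change of -0.46 ± 0.18 and Cadm1 one of -0.09 ± 0.19, neither past the test.

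Secreted signals and matrix genes gave no calls among the members. None of 8 linked signalling ligands and antagonists passed in edgeR or DESeq2 and 1 had an unadjusted p under 0.05, while over that list 4 of 92 tested genes rose. Slit3, Sema3f and Ntn1 guide cell migration, Dll4 is a Notch ligand of endothelium, Nrg4 a neuregulin and Ntf3 a neurotrophin. Their log2 fold changes ran from -0.68 ± 0.24 for Nrg4 to 0.22 ± 0.17 for Dll4. Col5a1, a fibrillar collagen chain, was at 73.5 to 103 CPM at 12 weeks and 56.1 to 74.3 CPM at 68 weeks. It did not pass in edgeR (log2 fold change -0.37 ± 0.11, adjusted p = 0.11) and did in DESeq2 (adjusted p = 0.0253), and over the matrix list 9 of 92 tested genes fell and 2 rose. Timp4 and Col23a1 had log2 fold changes of -0.12 ± 0.15 and 0.03 ± 0.13. Flt1, a vascular growth factor receptor and the single linked endothelial marker, had one of 0.16 ± 0.10.

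A chemokine gene, a muscle gene and a predicted gene were also among those that rose. Cxcl14, a chemokine, was linked to chr13:56441956-56442320 and was at 15.1, 8.44, 13.8 and 10.4 CPM at 12 weeks and 24.6, 25.3, 27 and 29.3 CPM at 68 weeks. The ages did not overlap (log2 fold change 1.15 ± 0.16, adjusted p = 0.0084, edgeR). Vgll2, a cofactor of TEAD transcription factors in skeletal muscle, was linked to chr10:51901114-51901340. It was at low levels of 0.09, 0.11, 0.26 and 0.32 CPM at 12 weeks and 1.19, 1.37, 0.97 and 0.98 CPM at 68 weeks (log2 fold change 2.55 ± 0.37, adjusted p = 0.0101, edgeR). Its 12-week mean was under the 0.5 CPM of the rule, so it is a member only through the 68-week libraries.

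Gm10800, the gene of the top-scoring region, was at 0.27, 0.65, 0.34 and 0.87 CPM at 12 weeks and 1.62, 4.87, 7.99 and 6.34 CPM at 68 weeks. Its log2 fold change of 3.29 ± 0.52 was the largest of the members (adjusted p = 0.0135, edgeR). How reads with several matches were counted is not given in the sources used here, and the value of a predicted gene that may have near-identical copies is uncertain. Without this region the members number 302, and the next highest score is 17.1.

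Also among the genes that rose were Gsg1l, Unc5a, Dock3, Osgin1, Tmem266, Rap1gap and Shank1. Gsg1l, an auxiliary subunit of glutamate receptors, was at 12.1 to 13.9 CPM at 12 weeks and 15.9 to 18.7 CPM at 68 weeks. Unc5a, a netrin receptor, was at 2.20 to 2.80 and 3.74 to 5.00 CPM. Their log2 fold changes were 0.45 ± 0.074 and 0.78 ± 0.13, each with an adjusted p of 0.0174 (edgeR). Dock3, a guanine nucleotide exchange factor, was at 0.913 to 1.08 CPM at 12 weeks and 1.30 to 2.90 CPM at 68 weeks (log2 fold change 1.23 ± 0.25, adjusted p = 0.0351, edgeR). Osgin1, Tmem266, Rap1gap and Shank1 had log2 fold changes of 0.56 ± 0.10, 0.58 ± 0.11, 0.56 ± 0.11 and 0.65 ± 0.15, with adjusted p-values from 0.0232 to 0.0498 (edgeR).

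Scd1, the stearoyl-CoA desaturase of fatty acid synthesis, was linked to chr19:44395472-44395834, with a score of 3.72. It was at 441, 227, 205 and 638 CPM at 12 weeks and at 50.6, 79.0, 144 and 35.9 CPM at 68 weeks. The lowest 12-week library was above the highest 68-week library (log2 fold change -2.29 ± 0.49, adjusted p = 0.0425, edgeR). The 12 adipocyte markers summed to 804 to 1558 CPM at 12 weeks and 332 to 623 CPM at 68 weeks, and 5 of the 12 fell. No library had that sum at 0. The part of adipocytes in the Scd1 result was not tested.

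The calls differed in how much they rested on single libraries. For Bnc2, Cacna1s, Cdh22, Cds1, Cxcl14, Gm10800, Gsg1l, Rab6b, Scn4b and Vgll2 the call held when any 1 of the 8 libraries was left out. Unc5a lost it without 68-week replicate 4 (adjusted p = 0.0568, edgeR). Atp2b2 lost it without 68-week replicate 4 (0.0554) and without 12-week replicate 2 (0.0518). Pax5 lost it without 12-week replicate 2 (0.050), 68-week replicate 2 (0.0547) and 68-week replicate 4 (0.0612). Osgin1 lost it without 12-week replicate 1 (0.0587), 12-week replicate 3 (0.0518), 68-week replicate 1 (0.0535) and 68-week replicate 4 (0.0686).

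Tmem266 lost its call whichever library was left out, with adjusted p-values up to 0.0797 (edgeR). Dock3 and Rap1gap kept theirs only without 68-week replicate 2 (0.00995 and 0.033), Scd1 only without 68-week replicate 3 (0.0246) and Shank1 only without 68-week replicate 1 (0.0242). Without the other libraries these 4 genes had adjusted p-values of at least 0.0526. The direction was the same in every one of these fits. Leaving out 68-week replicate 4 reduced the linked genes that rose from 17 to 10.

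Of the 19 calls, 10 held with airway transcripts in the model, all of them increases: Cds1, Scn4b, Bnc2, Cdh22, Rab6b, Cxcl14, Vgll2, Gm10800, Gsg1l and Unc5a. Besides Cacna1s and Atp2b2, the lost calls were Dock3 (adjusted p = 0.0515, edgeR), Tmem266 (0.0638), Osgin1 (0.0907), Scd1 (0.0915), Pax5 (0.111), Rap1gap (0.155) and Shank1 (0.159). The fold changes of these 9 genes kept their direction: with airway transcripts in the model the log2 values were 0.56 for Cacna1s, 1.24 for Atp2b2, 1.42 for Dock3, 0.66 for Tmem266, 0.58 for Osgin1, -2.22 for Scd1, -2.09 for Pax5, 0.50 for Rap1gap and 0.68 for Shank1. All 19 genes had the same direction within the 4 libraries low in airway transcripts and within the 4 high in them. Scd1 had a log2 fold change of -3.53 in the low libraries and -1.02 in the high ones, and Pax5 one of -1.38 and -2.54. Each of these comparisons has 1 library on one side.

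Another group of linked genes followed the airway transcripts. In 17 of the 209 genes (8.13%) all 4 libraries high in airway markers were above the 4 low ones, where 4.14% of all genes tested did so. In 14 of the 209 genes (6.70%) the mean was also at least 2 times as high, where 2.04% of all genes tested did so. Of these 14, 10 averaged under 0.5 CPM in the 4 low libraries and are members only through the high ones, so the share is not to be read against that of all genes. Of the 191 genes that reached 0.5 CPM in the low libraries, 4 were among the 14. None of the 14 passed the age test in edgeR or DESeq2, and 3 had an unadjusted p under 0.05. They were Cdh1, Cfap65, Aqp5, Atp7b, Cdhr3, Slc16a11, Cfap46, Pkp3, Odf3b, Faah, Tc2n, Map3k9, Ikzf3 and Runx1, of which all but Cdh1, Cfap46, Odf3b, Tc2n and Runx1 are named after their values were seen. Cdh1 and Pkp3 encode adhesion proteins of epithelium, Aqp5 a water channel of glands and airway, and Cfap46 and Cfap65 parts of motile cilia.

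The 4 high libraries had Cdh1 at 13, 6.86 and 3.36 CPM (12 weeks) and at 8.48 CPM (68 weeks). The low libraries had it at 0.40 CPM (12 weeks) and at 0.26, 0.29 and 0.03 CPM (68 weeks). The ratio of the means of the high and low libraries was 32.4. Runx1, by contrast, was at 9.34 to 14.6 CPM in the 4 high libraries and still at 4.91 to 6.49 CPM in the 4 low ones, a ratio of 2.01.

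When the level of 0.5 CPM was taken over the 4 low libraries alone, 18 of the 209 genes were under it, and the regions would number 277. The regions with the highest scores after Gm10800, those of Cdh1 and Cfap46, were linked to genes of this kind. The region lists come from separate CUT&RUN libraries, and airway content was not measured in them.

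**Figure D5:**
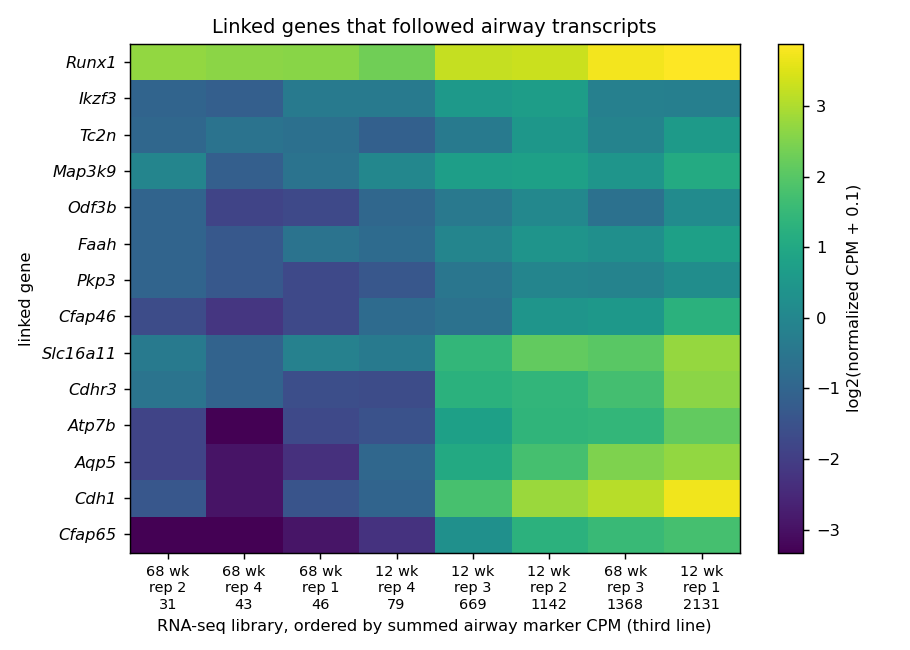
Log2 of normalized CPM plus 0.1 (colour scale) for 14 linked genes (y axis) in the 8 libraries (x axis). These genes were higher in all 4 airway-rich libraries, with a mean at least 2 times as high as in the low ones. The libraries are ordered by their summed airway marker CPM, given in the bottom line of each label. The 4 libraries with sums of 669 and more, 3 at 12 weeks and 1 at 68 weeks, are the brighter columns at the right.

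The 12-week members and the 68-week list had few places in common. No member overlapped a 68-week region, and 18 had one within 10 kb. The regions are named as unique to an age, so an overlap would go against their names. A linked expressed gene was shared with a 68-week region by 39 members, through 32 genes, which are 15.3% of the 209 genes and 6.44% of the expressed genes linked at 68 weeks. Fgfr2, a fibroblast growth factor receptor, had 3 regions at 12 weeks and 17 at 68 weeks, and is named after this was seen. Its 3 regions at 12 weeks spread over 1049.62 kb, and the counted gene runs from base 130162451 to 133123350 of chromosome 7. The part of this long span in the number of regions was not tested. Ndrg4 had 1 region at 12 weeks and 6 at 68 weeks, Shank1 1 and 5, Tmem266 3 and 3, and Tiam1 1 and 3.

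Of the 177 genes linked at 12 weeks only, 13 rose and 1 fell at 68 weeks. Of the 32 linked at both ages, 4 rose (Gsg1l, Tmem266, Dock3 and Shank1) and 1 fell (Pax5). Expressed genes linked to 68-week regions numbered 496 tested, of which 19 rose (3.83%) and 11 fell (2.22%). Among 14278 tested genes at a mean of 0.5 CPM or more with no linked region, 217 rose (1.52%) and 180 fell (1.26%). These sets share libraries and the fit, and the differences between them were not tested. Regions of called genes spanned the range of scores: 22 regions were linked to a called gene, and 9 of the 19 genes had no region at or above the list median of 4.50. Besides the region of Gm10800, the scores of the 22 ran from 3.27 to 9.59.

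None of the genes that write, read or remove the mark was linked to a member. Of 12 tested PRC2 genes 0 passed the age test in edgeR or DESeq2 and 2 had an unadjusted p under 0.05. Ezh2 and Ezh1 had log2 fold changes of -0.25 ± 0.11 and -0.15 ± 0.056. Among the PRC1 genes, Rybp rose from 9.34 ± 0.531 CPM (SD, n = 4) to 11.7 ± 0.241 (adjusted p = 0.0333, edgeR) and Pcgf5 from 41.4 ± 1.13 to 49.7 ± 3.48 (adjusted p = 0.0395, edgeR). Of 8 tested demethylase and cofactor genes, Uty fell from 34.1 ± 1.02 to 30.1 ± 0.436 CPM (adjusted p = 0.0491, edgeR), and Kdm6a and Kdm6b had log2 fold changes of -0.09 ± 0.064 and -0.06 ± 0.076.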

How the data were processed

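Hearts of both ages were profiled by RNA-seq (4 libraries per age) and H3K27me3 CUT&RUN. The RNA values are raw counts per gene as the authors deposited them, per the file headers. Trimmomatic 0.36, STAR 2.5.2b, featureCounts of Subread 1.5.2, DESeq2, MACS3 3.0.0b1, Bowtie2 2.4.2, Picard 2.26.2, Trim Galore 0.6.5 and SAMtools 1.14 are named in the submitters' processing notes. The deposited region lists give a score per region, called enrichment, with no scale. How replicates were pooled, and how genes were linked, is not given in the sources used here.

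Members and gene lists were chosen with earlier results of these data known. Named genes were all called members, those of highest level, score, width or number of regions, the most abundant of each list, those nearest the threshold and those linked at both ages. A few genes that these rules took are not reported here. Of the 345 links of members to genes in the count table, 25.5% had region coordinates that overlapped those of the gene. This is a check of coordinates and not a share of regions lying on their genes, because the positions appeared shifted against each other. Over all regions of the members' list, the gaps to linked genes on chromosome 11 had quartiles of -112363 and -103616 bases. On chromosome 13 the quartiles were 145782 and 182325 bases, while on chromosome 1 they were -78731 and 44340 bases. Region and gene positions thus cannot be compared directly, and the build of the regions was not established.

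The age test was the quasi-likelihood test of edgeR 4.0.16, R 4.3.3 (TMM, filterByExpr, age alone, adjusted p of 0.05). An approximate SE was taken as the size of the log2 value over the root of the F statistic. Levels are CPM of the TMM-normalized library size; the rule, the thresholds and marker sums use CPM of total counts. Per kilobase values use the gene length of the count tables. The common biological coefficient of variation was 0.139. Scripts were tested on simulated data. The labels do not say that libraries came from separate mice, so p-values cover only the variation among the libraries, which may be technical. Alternatives were DESeq2 1.42.0, other scalings and filters, leaving out libraries, airway markers as a covariate, and other thresholds for membership.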

Additional observations from a re-analysis of the deposited data

Results flagged for a closer look

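Of 150 groups of 4 libraries checked, 8 held a library far from the other 3 by Dixon's criterion, where chance gives about 1 in 20 groups. Cdh1 was at 8.48 CPM in 68-week replicate 3 and at 0.0297 to 0.288 CPM in the others of that age, Cfap46 at 1.32 against 0.119 to 0.216 CPM, and Runx1 at 13.3 against 5.93 to 6.49 CPM. That library was the only one of its age with a high sum of airway markers. In 12-week replicate 1, which had the highest sum of airway markers, Prdm1 was at 4.95 against 1.81 to 2.32 CPM, Dll4 at 25.9 against 15.2 to 15.9 CPM, and Rap1gap, a called gene, at 13.1 against 15.7 to 15.9 CPM. In 68-week replicate 2, which had the lowest sum, Slc17a7 was at 77.4 against 102 to 106 CPM and Cacna1s, also called, at 16.5 against 14.6 to 14.9 CPM.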

How the results depend on the processing

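None of the named genes that passed the age test changed direction under any alternative run, and RLE size factors, with 17 linked genes higher and 2 lower, changed no count by more than 1.5 times. The linked genes that were higher numbered 26 in DESeq2, 10 with airway markers in the model, 9 with the replicate block, 2 in either the airway-low or the airway-high libraries alone, and 10 with regions at or above the median score. Leaving out 1 library gave 10 to 15, the lowest without 68-week replicate 4. The linked genes that were lower, 2 in the report, numbered 12 in DESeq2, 5 with library size alone, 5 with no filter, 1 at a mean CPM of 1 or more, 1 in the airway-low libraries, 1 with membership by those libraries, and 0 with airway markers in the model, in the airway-high libraries, with the replicate block and with regions at or above the median score. Leaving out 1 library gave 0 to 4: 0 without 68-week replicate 2 or 4, 1 without 12-week replicate 1 or 3 or 68-week replicate 1, and 4 without 68-week replicate 3. Over all genes, 555 were higher and 446 lower in DESeq2, 81 and 28 with airway markers in the model, 112 and 48 with the replicate block, 4 and 1 in the airway-high libraries, 10 and 23 in the airway-low ones, and 117 to 209 and 52 to 154 without 1 library. The median log2 fold change of linked genes was 0.11 with airway markers in the model or in the airway-low libraries, -0.03 with library size alone, and 0.01 to 0.08 without 1 library. With regions at or above the median score the members numbered 160. Among all 303 members, 39 share an expressed linked gene with the 68-week list, 18 have a 68-week region within 10 kb and 0 overlap one. The 18 are not all among the 39. Mean score and width were 5.80 and 312 bases, against medians of 4.55 and 274. The causes of these changes were not tested. The replicate numbers did not pair the libraries: correlations of same-numbered libraries were -0.18, 0.07, -0.08 and 0.19, and 0 of the 4 numbers matched best with their own. The alternatives with only airway-low or airway-high libraries, membership by airway-low libraries and the omission of the top region were chosen after seeing the data. With 1 library on one side, that library is assumed to vary like the others.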
